A study of Rattus norvegicus with 23 samples.

Results

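The 8 genes described here, Fkbp5, Tsc22d3, Sgk1, Per1, Klf9, Ddit4, Zbtb16 and Nr3c1, are glucocorticoid-responsive genes that were taken by name from the 20301 genes of the deposited table. All 8 were found in it under these symbols. They were measured by RNA sequencing in CD11b/c-selected cells labelled microglia from Wistar rat pups of both sexes, operated on postnatal day 7 and processed 24 h later. Pups of the Sham group (n = 6 samples) had the sham operation with no injection listed, those of the LPS group (n = 5 samples) had the sham operation after lipopolysaccharide at 0.1 mg/kg, those of the NaCl/HI group (n = 6 samples) had hypoxia-ischemia (HI) after 0.9% NaCl, and those of the LPS/HI group (n = 6 samples) had HI after the same dose of lipopolysaccharide. LPS preceded the operation by 4 h, and HI combined ligation of the left common carotid artery with 50 min in 8% oxygen and a period at normothermia. All groups had isoflurane anesthesia, chloral hydrate before the brains were taken, and enzymatic dissociation of the tissue. A Sham or LPS sample was the entire brain of 1 pup, whereas an HI sample pooled the ipsilateral hemispheres of 2 pups, so that HI, the tissue taken and pooling cannot be told apart. Since no injection is listed for Sham, each of the other groups set against Sham also differs from it by the injection, which cannot be told apart from LPS or HI there. CD11b/c beads also retain macrophages, monocytes and neutrophils.

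Glucocorticoids cross the cell membrane and bind the glucocorticoid receptor, which Nr3c1 encodes. In the resting cell the receptor sits in the cytoplasm with heat shock proteins and immunophilins, and after binding it moves to the nucleus, where it raises the transcription of some genes and lowers that of many inflammatory genes. Stress, infection and injury can raise circulating glucocorticoids, and microglia carry the receptor. No hormone level of these pups was reported. Of the 8 genes, Fkbp5 encodes a co-chaperone that lowers the hormone affinity of the receptor, Tsc22d3 the leucine zipper protein GILZ, which restrains inflammatory transcription factors, and Sgk1 a kinase that regulates ion transport and cell survival. Per1 encodes a repressor of the circadian clock, Klf9 and Zbtb16 zinc finger transcription factors, and Ddit4 an inhibitor of mTORC1 that hypoxia and energy stress also induce.

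The values are rlog values, that is log2 counts of a gene scaled for library size and drawn toward the gene's mean where counts are low, after the authors had removed 3 surrogate variables. They are not divided by transcript length, so the results compare levels between samples and not between genes. A difference of 1 on this scale is a change of 2-fold. The depth of each sample is unknown, since no counts were used, and the median log2 value of a sample lay between 7.75 and 7.82. All 7 microglia markers examined had a mean of 12.48 or more over the 23 samples. No marker of the other 9 cell types examined had a mean at or below 0, and the lowest was the neutrophil marker Elane at 0.33. Values in the table ran down to -1.35, so 0 is not a limit of detection on this scale. In these bulk samples fewer cells of a type and less RNA per cell cannot be told apart.

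RefSeq start sites on the rat assembly GRCr8 were found for 7 of the 8 genes, with 12 windows of 250 bases before the start, whereas Zbtb16 had none. Neither the palindromic glucocorticoid response element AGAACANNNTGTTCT, in which N is any base, nor its single arm AGAACA was found on either strand in any of the 12 windows. The first was present in 0.012% and the second in 17.5% of all 33469 windows. The E-box CACGTG, which clock proteins bind, was in 0 of 12 windows and in 5.59% of all, and the cyclic AMP response element TGACGTCA in 0 of 12 and 1.59% of all. The hypoxia response core ACGTG, which is also part of the E-box, was found before Ddit4 and Klf9 and in 16.6% of all windows, and the TATA box TATAAA before 2 of the 3 Sgk1 starts and 1 of the 3 Tsc22d3 starts and in 12.9% of all windows. These 5 windows are shown because they hold the matches found in the genes described below, and capitals mark the matched letters. The windows of Sgk1 are chr1:24804832-24805081 and chr1:24807232-24807481 on the minus strand, that of Tsc22d3 is chrX:109010035-109010284 on the minus strand, that of Ddit4 is chr20:28437038-28437287 on the minus strand, and that of Klf9 is chr1:230126396-230126645 on the plus strand. The matches lie 33 and 55 bases before the start in Sgk1, 44 in Tsc22d3, 138 in Ddit4 and 77 in Klf9.
Sgk1, first window: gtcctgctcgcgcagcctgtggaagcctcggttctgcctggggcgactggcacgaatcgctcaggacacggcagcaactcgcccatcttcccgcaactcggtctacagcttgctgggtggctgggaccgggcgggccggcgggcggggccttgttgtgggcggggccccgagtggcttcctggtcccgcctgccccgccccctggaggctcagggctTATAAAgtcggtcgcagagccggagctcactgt
Sgk1, second window: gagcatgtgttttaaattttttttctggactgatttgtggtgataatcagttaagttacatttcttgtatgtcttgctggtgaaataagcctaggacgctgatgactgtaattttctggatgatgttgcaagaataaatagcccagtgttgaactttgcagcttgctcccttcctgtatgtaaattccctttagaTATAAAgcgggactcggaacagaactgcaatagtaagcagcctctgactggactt
Tsc22d3: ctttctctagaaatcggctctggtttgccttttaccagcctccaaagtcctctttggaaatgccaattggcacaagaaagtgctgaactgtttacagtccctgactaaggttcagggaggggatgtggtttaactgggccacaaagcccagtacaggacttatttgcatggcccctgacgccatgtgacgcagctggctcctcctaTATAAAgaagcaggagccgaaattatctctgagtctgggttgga
Ddit4: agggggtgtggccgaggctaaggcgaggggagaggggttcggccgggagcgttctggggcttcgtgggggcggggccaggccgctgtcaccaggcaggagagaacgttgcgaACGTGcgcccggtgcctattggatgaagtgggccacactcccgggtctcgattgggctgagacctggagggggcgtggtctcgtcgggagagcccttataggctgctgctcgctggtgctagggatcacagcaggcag
Klf9: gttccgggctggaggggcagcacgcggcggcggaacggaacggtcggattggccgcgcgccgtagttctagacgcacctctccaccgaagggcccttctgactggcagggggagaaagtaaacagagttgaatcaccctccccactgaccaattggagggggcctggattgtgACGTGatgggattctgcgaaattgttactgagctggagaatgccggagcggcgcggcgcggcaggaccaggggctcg
A match of these letters describes the window and does not show that a factor binds there, and elements outside these windows were not examined.

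By limma, Sgk1 was the only one of the 8 genes to pass the test between any pair of groups, and it was lower after LPS alone. In Sham it lay between 12.32 and 12.74 with a median of 12.48. The 5 LPS samples read 12.02, 12.12, 12.30, 11.80 and 12.05 for Sgk1, all below the lowest Sham sample. In NaCl/HI Sgk1 lay between 12.26 and 12.83 with a median of 12.50, and in LPS/HI between 12.33 and 12.69 with a median of 12.46. The 3 groups other than LPS thus covered the same range of Sgk1 levels, with means of 12.50 ± 0.16 (SD, n = 6) in Sham, 12.52 ± 0.20 (n = 6) in NaCl/HI and 12.48 ± 0.15 (n = 6) in LPS/HI and 95% intervals of their differences that reached no further than -0.24 and 0.22, while LPS stood at 12.06 ± 0.18 (n = 5).

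The comparison of LPS with Sham asks what the injection did without HI. Sgk1 was lower in LPS by a log2 difference of -0.45 (SE 0.10, 95% interval -0.66 to -0.23, fold 0.734, limma adjusted p = 0.00462). It was thus 1 of the 8 genes called, beside 17.8% of all genes called in either direction and 7.56% called lower, and its 2 groups did not overlap, as was so for 13.9% of all genes. The difference kept its sign and its call in all 23 fits that left out 1 sample, with values between -0.51 and -0.38. Within libraries numbered 1 to 12 it was -0.47 (limma adjusted p = 0.00935) and within libraries 13 to 23 also -0.47 (limma adjusted p = 0.126).

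Sgk1 was also lower in LPS than in both HI groups. LPS/HI exceeded LPS by 0.42 (SE 0.10, 95% interval 0.21 to 0.63, limma adjusted p = 0.0371), 1 of 8 genes beside 1.94% of all genes called and 1.22% called higher, and the 2 groups did not overlap (4.17% of all genes). This call lay near the threshold and did not hold in every fit that left out 1 sample. It was lost without LPS replicate 1, 2, 4 or 5 and without LPS/HI replicate 2, 4 or 5, where the difference lay between 0.36 and 0.44 and the limma adjusted p between 0.0622 and 0.139. Against NaCl/HI, Sgk1 was lower in LPS by -0.46 (SE 0.10, 95% interval -0.68 to -0.25, limma adjusted p = 0.00619), 1 of 8 beside 8.98% of all genes called and 3.66% called lower, and here 1 LPS sample at 12.30 overlapped the lowest NaCl/HI sample at 12.26. Within libraries 1 to 12 and 13 to 23 the difference of LPS/HI from LPS was 0.25 and 0.64 (limma adjusted p = 0.395 and 0.0811), and that of LPS from NaCl/HI was -0.32 and -0.65 (limma adjusted p = 0.095 and 0.0594).

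**Figure D1:**
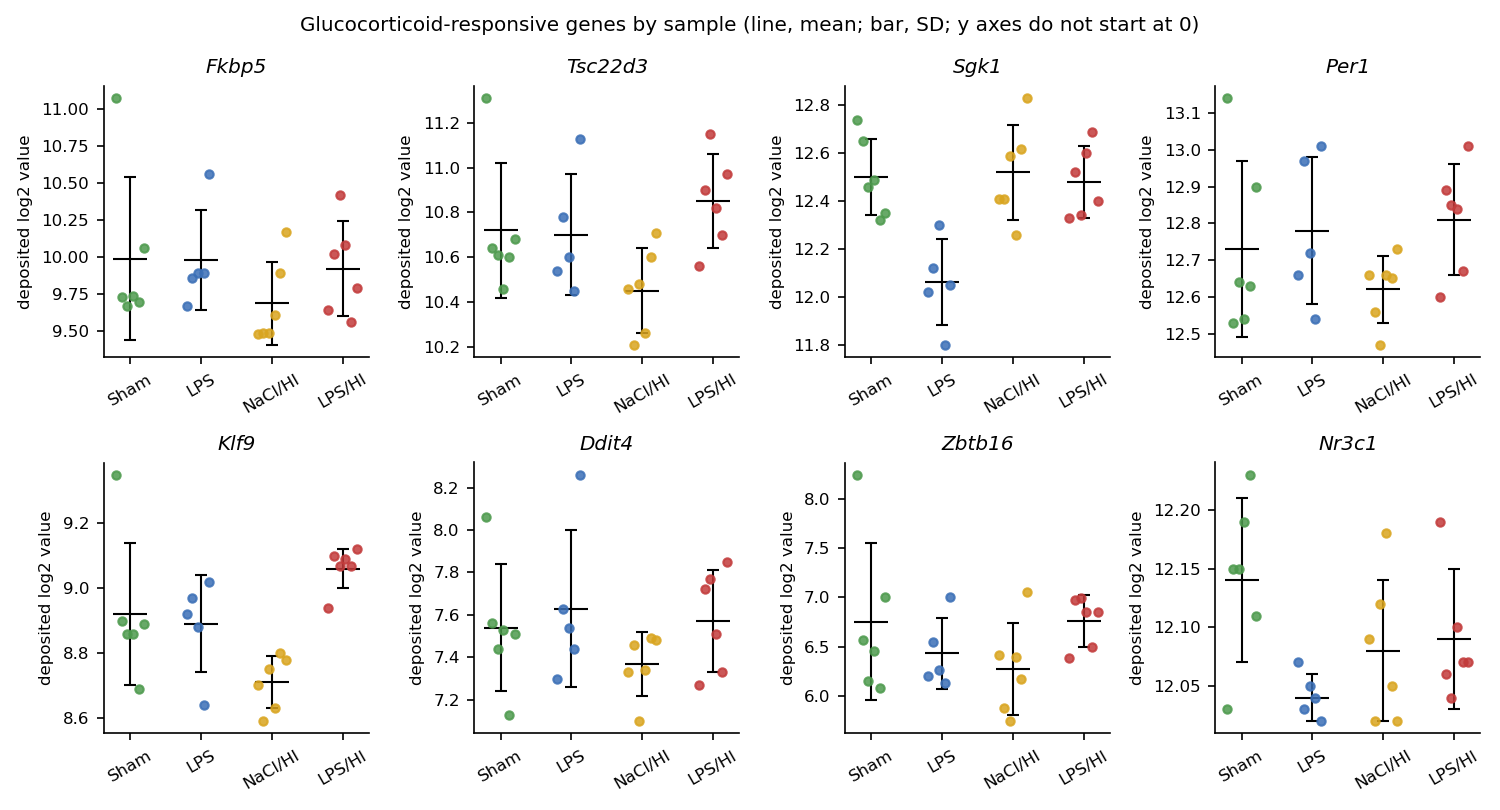
Deposited log2 value of each of the 8 genes (y axis, not starting at 0) in each sample, by group (x axis). Points are samples, black lines are group means and bars are SD. The 5 LPS samples of Sgk1 sit between 11.80 and 12.30, below all Sham samples, and the Klf9 values of LPS/HI (8.94 to 9.12) sit above those of NaCl/HI (8.59 to 8.80).

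Markers of several cell types moved along with Sgk1 in LPS against Sham, where 17.8% of all genes were called and 7.56% were called lower. Of the microglia markers, 0 were higher and 3 of 7, or 42.9%, lower (P2ry12, Cx3cr1 and Sall1), and their mean level ranged from 14.11 to 14.43 in Sham and from 14 to 14.19 in LPS. Of the neuron markers 4 of 7, or 57.1%, were lower, with mean levels of 6.93 to 7.16 in Sham and 6.67 to 6.90 in LPS. Border macrophage markers were lower in 2 of 6, or 33.3% (Lyve1 and Mrc1), with mean levels of 11.23 to 12.12 in Sham and 11.06 to 11.48 in LPS. Endothelial markers were higher in 1 of 6 (Pecam1) and lower in 2 (Flt1 and Emcn), 50% of the list, with 10.34 to 10.63 in Sham and 10.26 to 10.49 in LPS. Neutrophil markers were lower in 1 of 9 (Camp), astrocyte markers higher in 1 of 6 (Aldh1l1) and monocyte markers higher in 1 of 6 (Plac8), shares of 11.1% to 16.7% that were below that of all genes called in either direction, while mural, oligodendrocyte lineage and T cell markers had 0 calls by limma, with an unadjusted p under 0.05 in 3 of these 17 genes beside 32% of all genes. The part of these markers in the Sgk1 difference was not tested.

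In LPS/HI against LPS, where 1.94% of all genes were called, 1 of 9 neutrophil, 1 of 6 endothelial, 2 of 6 mural and 1 of 7 neuron markers were higher and 1 of 6 monocyte markers was lower, and the other 5 marker lists had 0 calls by limma, with an unadjusted p under 0.05 in 6 of their 30 genes beside 15.5% of all genes. In LPS against NaCl/HI, where 8.98% of all genes were called, 1 of 7 microglia, 1 of 7 neuron and 1 of 6 border macrophage markers were lower, 1 of 6 endothelial and 1 of 6 astrocyte markers were higher, and 1 of 6 monocyte markers was called in each direction. The other 4 marker lists had 0 calls by limma, with an unadjusted p under 0.05 in 13 of their 26 genes beside 23% of all genes. These were 6 of 8 oligodendrocyte lineage markers (median difference of the list -0.45), 3 of 9 neutrophil (-0.13), 3 of 6 mural (-0.18) and 1 of 3 T cell markers (-0.04). Across the 23 samples, Pearson's r of Sgk1 with the mean of a marker list was 0.60 for the oligodendrocyte lineage, 0.44 for microglia, 0.42 for neurons, 0.41 for endothelium, 0.34 for border macrophages, 0.32 for mural cells and also 0.32 for neutrophils, and it lay between -0.17 and 0.13 for monocytes, T cells and astrocytes, given as a description of samples that share these cells and this processing. The part of these markers in the Sgk1 differences was not tested either.

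The 2 genes whose values ran most like those of Sgk1 over the 23 samples were Mgll, encoding monoacylglycerol lipase, with Pearson's r of 0.90, and the tetraspanin gene Cd9 with r of 0.87. Without the 2 samples farthest from the Sgk1 median, r was 0.90 for Mgll and 0.82 for Cd9, and with group means removed 0.81 and 0.77. Mgll was lower in LPS than in Sham by -0.37 and Cd9 by -0.34 on the log2 scale (limma adjusted p = 0.000311 and 0.02). Both were picked for their r with Sgk1, which was itself lower in LPS, so these differences are not independent of the choice.

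Klf9 was the gene in which LPS/HI and NaCl/HI stood apart, in the comparison that asks what LPS added to HI and in which tissue and pooling were the same. In NaCl/HI it ranged from 8.59 to 8.80 (median 8.72) and in LPS/HI from 8.94 to 9.12 (median 9.08), so that the groups did not overlap, as in 1.33% of all genes. The log2 difference was 0.36 (SE 0.08, 95% interval 0.18 to 0.53, fold 1.28), with a limma adjusted p of 0.0752 that did not pass the threshold. Over the 23 fits that left out 1 sample, the difference lay between 0.33 and 0.38 and the limma adjusted p between 0.0198 and 0.179. It passed in only 2 of them, without Sham replicate 1 (limma adjusted p = 0.0198) and without LPS/HI replicate 1 (limma adjusted p = 0.0451), the lowest LPS/HI sample of Klf9. In Sham, Klf9 lay between 8.69 and 9.35 (median 8.87), and the LPS samples read 8.92, 8.97, 8.88, 8.64 and 9.02 for Klf9, and both groups overlapped LPS/HI and NaCl/HI.

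Tsc22d3 showed the same order of HI groups with overlap. It ranged from 10.21 to 10.71 (median 10.47) in NaCl/HI and from 10.56 to 11.15 (median 10.86) in LPS/HI, a log2 difference of 0.40 (SE 0.13, 95% interval 0.12 to 0.68, limma adjusted p = 0.247). In Sham it ranged from 10.46 to 11.31 (median 10.62), and the 5 LPS samples read 10.54, 10.78, 10.60, 10.45 and 11.13. Sham replicate 1 and LPS replicate 5 were the high samples of their groups, and all groups overlapped one another.

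None of the 8 genes was called in LPS/HI against NaCl/HI, beside 0.202% of all genes called by limma and 10.6% with an unadjusted p under 0.05. The exact Wilcoxon test called no gene here, and its lowest adjusted p over all genes was 0.162. The unadjusted limma p was under 0.05 in 2 of the 8, Klf9 and Tsc22d3. The difference was positive in 7 genes and -0.04 in Sgk1, with a median over the 8 of 0.22 beside 0 over all genes. For Zbtb16 it was 0.48 (95% interval -0.11 to 1.08), for Fkbp5 0.23 (-0.21 to 0.67), for Ddit4 0.21 (-0.11 to 0.52), for Per1 0.19 (-0.02 to 0.40) and for Nr3c1 0.01 (-0.07 to 0.09). No gene of the 10 marker lists was called by limma in this comparison, with an unadjusted p under 0.05 in 13 of 64, and the mean level of the neutrophil markers ranged from 5.59 to 6.40 in NaCl/HI and from 6.04 to 7.02 in LPS/HI.

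**Figure D2:**
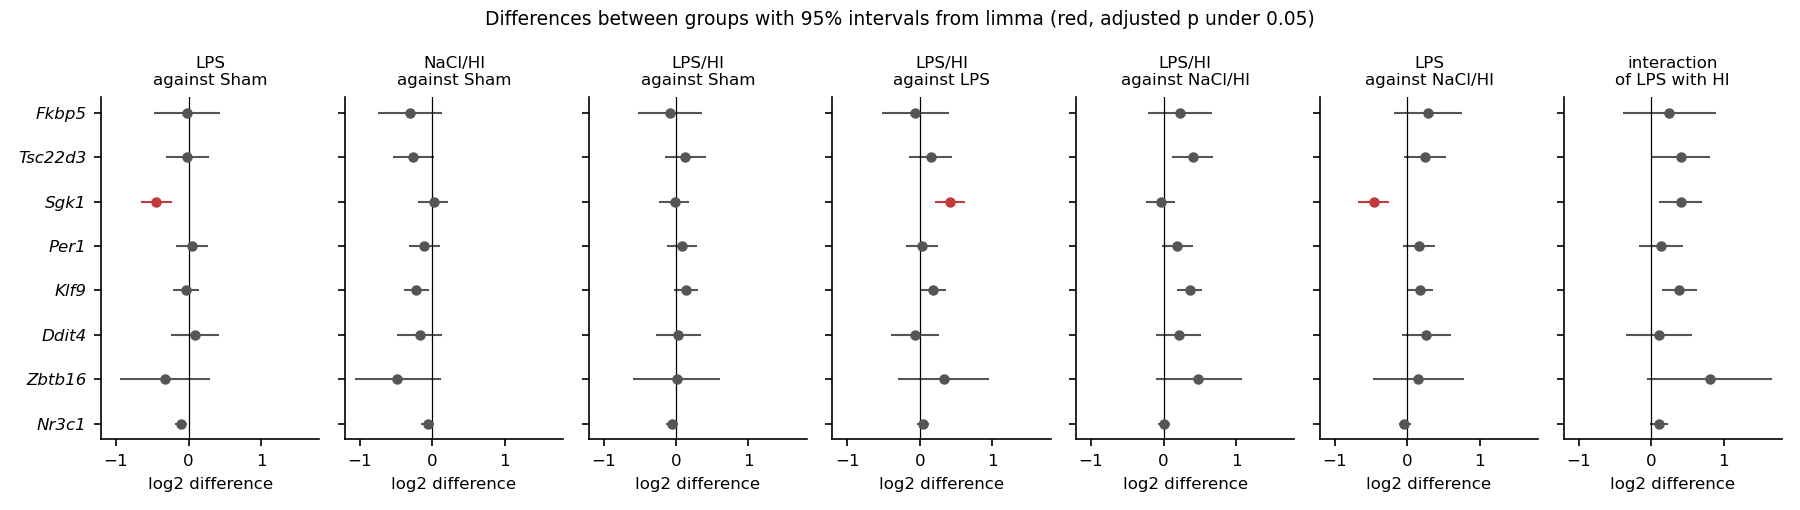
Log2 difference between groups (x axis) of each of the 8 genes (y axis) in the 6 comparisons of 2 groups and in the interaction. Points are limma estimates, bars are 95% intervals, and red marks an adjusted p under 0.05, which Sgk1 alone reached, in 3 comparisons.

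The remaining induced genes varied more within groups than between them. Fkbp5 ranged from 9.67 to 11.07 in Sham (median 9.73), from 9.48 to 10.17 in NaCl/HI (median 9.55) and from 9.56 to 10.42 in LPS/HI (median 9.90), and the LPS samples read 9.67, 9.86, 9.89, 9.89 and 10.56. Sham replicate 1 at 11.07 was far above the next Sham sample at 10.06, and all 4 groups overlapped. Per1 ranged from 12.53 to 13.14 in Sham (median 12.64), from 12.47 to 12.73 in NaCl/HI (median 12.65) and from 12.60 to 13.01 in LPS/HI (median 12.84), with LPS samples at 12.66, 12.97, 12.72, 12.54 and 13.01. The narrowest range of Per1 was that of NaCl/HI, inside the range of Sham but for its lowest sample.

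Ddit4 ranged from 7.13 to 8.06 in Sham (median 7.52), from 7.10 to 7.49 in NaCl/HI (median 7.40) and from 7.27 to 7.85 in LPS/HI (median 7.62), with LPS samples at 7.30, 7.63, 7.54, 7.44 and 8.26. Its highest sample was LPS replicate 5, and neither HI group reached the highest Sham sample. Zbtb16 ranged from 6.08 to 8.25 in Sham (median 6.51), from 5.74 to 7.06 in NaCl/HI (median 6.28) and from 6.38 to 6.99 in LPS/HI (median 6.85), with LPS samples at 6.20, 6.55, 6.26, 6.13 and 7.0. Its spread within groups, an SD of 0.569, was above that of 99.6% of all genes, and that of Fkbp5, 0.423, was above 99.1%, beside a median of 0.107 over all genes.

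Nr3c1, the receptor gene, varied least. It ranged from 12.03 to 12.23 in Sham (median 12.15), from 12.02 to 12.18 in NaCl/HI (median 12.07) and from 12.04 to 12.19 in LPS/HI (median 12.07), and the LPS samples read 12.07, 12.03, 12.05, 12.04 and 12.02. The LPS values lay at the low end of the Sham range, with LPS replicate 5 at 12.02 just below the lowest Sham sample, replicate 1 at 12.03. The difference of LPS from Sham was -0.10 (SE 0.04, 95% interval -0.19 to -0.02, limma adjusted p = 0.0862), and without Sham replicate 1 it was -0.12 and passed (limma adjusted p = 0.0412). Its SD within groups, 0.061, was above that of 13.7% of all genes.

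In NaCl/HI against Sham, which asks what HI did without LPS and also holds the injection of NaCl, none of the 8 genes was called by limma, beside 0.00985% of all genes called and 14.8% with an unadjusted p under 0.05. The exact Wilcoxon test, whose lowest adjusted p over all genes was 0.213, called no gene in this comparison. Only Klf9 had an unadjusted p under 0.05, with a difference of -0.22 (SE 0.08, 95% interval -0.39 to -0.04, limma adjusted p = 0.241). The difference was negative in 7 genes and 0.02 in Sgk1, with a median over the 8 of -0.19 beside -0.01 over all genes. These values rested in part on Sham replicate 1. Without it the median was -0.09, with 7 genes negative, and Zbtb16 differed by -0.18, Tsc22d3 by -0.15, Klf9 by -0.13, Fkbp5 by -0.09, Ddit4 by -0.07 and Per1 by -0.03, all nearer to 0, whereas Nr3c1 went from -0.06 to -0.09 and Sgk1 from 0.02 to 0.06. With all samples Zbtb16 differed by -0.48 (95% interval -1.07 to 0.12), Fkbp5 by -0.31 (-0.75 to 0.13), Tsc22d3 by -0.26 (-0.54 to 0.02), Ddit4 by -0.17 (-0.49 to 0.14) and Per1 by -0.11 (-0.32 to 0.10). Sham is part of this comparison and of the others with Sham, and NaCl/HI of those with NaCl/HI, so their differences are not independent.

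In LPS/HI against Sham, the combined treatment, 0 of the 8 genes were called by limma or by the exact Wilcoxon test, beside 8.77% of all genes, and 0 had an unadjusted p under 0.05, beside 26.8% of all genes. The differences ran from -0.08 in Fkbp5 (95% interval -0.52 to 0.36) to 0.14 in Klf9 (-0.03 to 0.31). Their median of 0.02 had no stable sign, and lay between -0.04 without Sham replicate 5 and 0.15 without Sham replicate 1. Without Sham replicate 1, the high Sham sample of Klf9, the difference of Klf9 was 0.22 and passed (limma adjusted p = 0.044), that of Fkbp5 was 0.14, and 7 of the 8 were positive.

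The interaction asks whether the difference made by LPS was another with HI than without it. None of the 8 genes was called by limma, beside 1.08% of all genes called and 15.1% with an unadjusted p under 0.05, and the rank test does not give this contrast. The estimate was positive in 8 of 8 genes, with a median of 0.32 beside 0.01 over all genes. Without Sham replicate 1 it was again positive in 8 of 8, with a median of 0.21, and with values of 0.01 in Ddit4, 0.03 in Fkbp5 and 0.05 in Per1. Klf9 gave 0.39 (95% interval 0.15 to 0.64, limma adjusted p = 0.111), Sgk1 0.41 (0.11 to 0.70, limma adjusted p = 0.169) and Tsc22d3 0.41 (0.01 to 0.82, limma adjusted p = 0.321), which were the 3 genes with an unadjusted p under 0.05. Zbtb16 gave the highest estimate with the widest interval, 0.81 (-0.06 to 1.67), which was 0.51 without Sham replicate 1. Tissue and pooling were the same within each of the 2 differences it sets against each other, so a shift that they add equally to both groups of a difference drops out, but HI cannot be told apart from a difference by tissue or pooling in what LPS did. Injection does not drop out, since Sham lacked it and the other 3 groups had it, and it cannot be told apart from the interaction.

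Fkbp5, Tsc22d3, Per1, Klf9, Ddit4 and Zbtb16 ran together from sample to sample, within groups as well as across them. These 6 were set apart from Sgk1 and Nr3c1 after their values had been seen, so the correlations are a description. Over the 23 samples the 15 pairs had a Pearson's r of 0.65 to 0.87 (median 0.80) and a Spearman's rho of 0.51 to 0.85 (median 0.71). Without the 2 samples farthest from the median of the first gene of a pair, r was 0.45 to 0.83 (median 0.71), and with the group means removed it was 0.69 to 0.89 (median 0.79). When all 20300 other genes were ranked by their r with 1 of the 6, the other 5 stood at places 1 to 144, with a median place of 16.5.

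Within groups the 6 genes ran together to differing degrees, which were not compared by a test. The median r of the 15 pairs was 0.92 in Sham (0.71 to 0.98), 0.87 in LPS (0.42 to 1.00), 0.82 in LPS/HI (0.35 to 0.95) and 0.59 in NaCl/HI (-0.01 to 0.94), each over only 5 or 6 samples. Sham replicate 1 was the highest of 23 samples in 5 of the 6 genes and among the top 3 in 6, and LPS replicate 5 was the highest in Ddit4 and among the top 3 in 4 genes. Without these 2 samples the 15 pairs had an r of 0.45 to 0.84 (median 0.67). At the low end, NaCl/HI replicates 2 and 3 were each among the bottom 3 in 4 of the 6 genes.

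**Figure D3:**
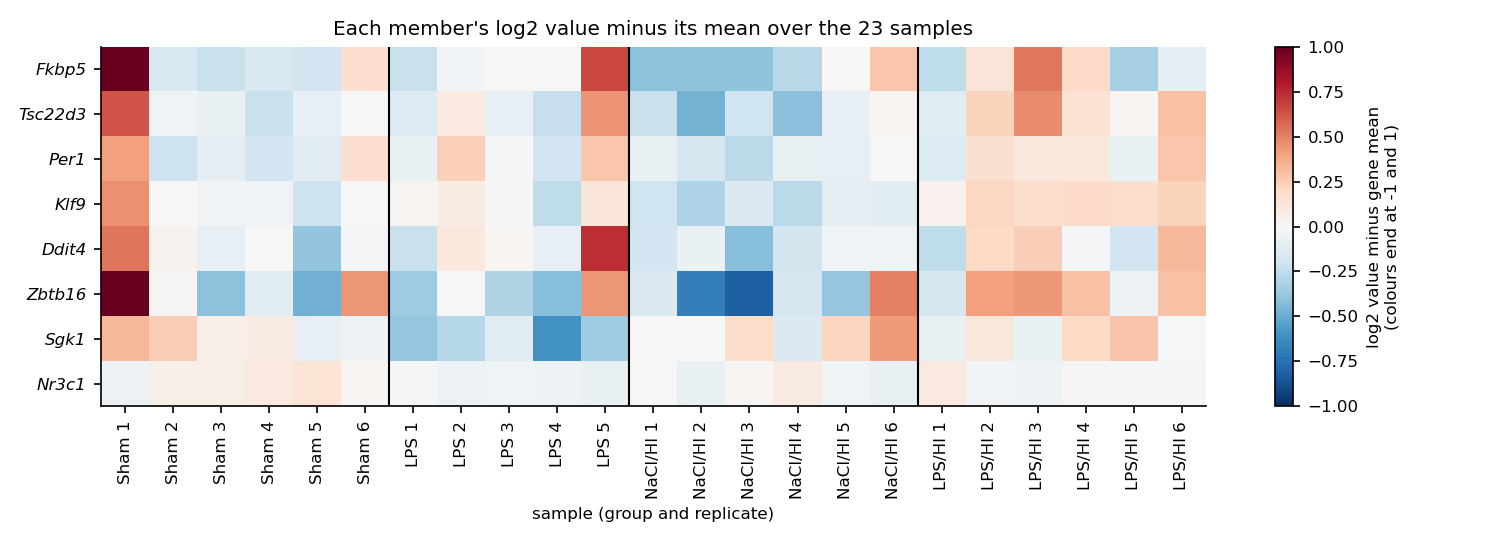
Log2 value of each of the 8 genes (rows) minus its mean over the 23 samples, by sample (columns, grouped). Red is above and blue below the gene's mean, and colours end at -1 and 1. Sham 1 and LPS 5 are red in the upper 6 rows, NaCl/HI 2 and 3 are blue there, and the LPS samples are blue in the Sgk1 row.

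Nr3c1 ran against the 6 genes. Its r with them was -0.54 to -0.28 (median -0.44) over the 23 samples, with a rho of -0.52 to -0.20. With group means removed r was -0.68 to -0.62 (median -0.66), and without Sham replicate 1 and LPS replicate 5 it was -0.47 to -0.17. Sgk1 had an r of -0.04 to 0.30 (median 0.13) with the 6, a rho of -0.05 to 0.28, and with group means removed an r of 0.22 to 0.63, the highest with Klf9. The share of the variance that lay between groups was 57.4% for Sgk1, 50.1% for Klf9, 33.7% for Nr3c1, 30.3% for Tsc22d3, 16.8% for Per1, 16.6% for Zbtb16, 13.7% for Ddit4 and 10.9% for Fkbp5, beside a median of 26.5% over all genes.

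**Figure D4:**
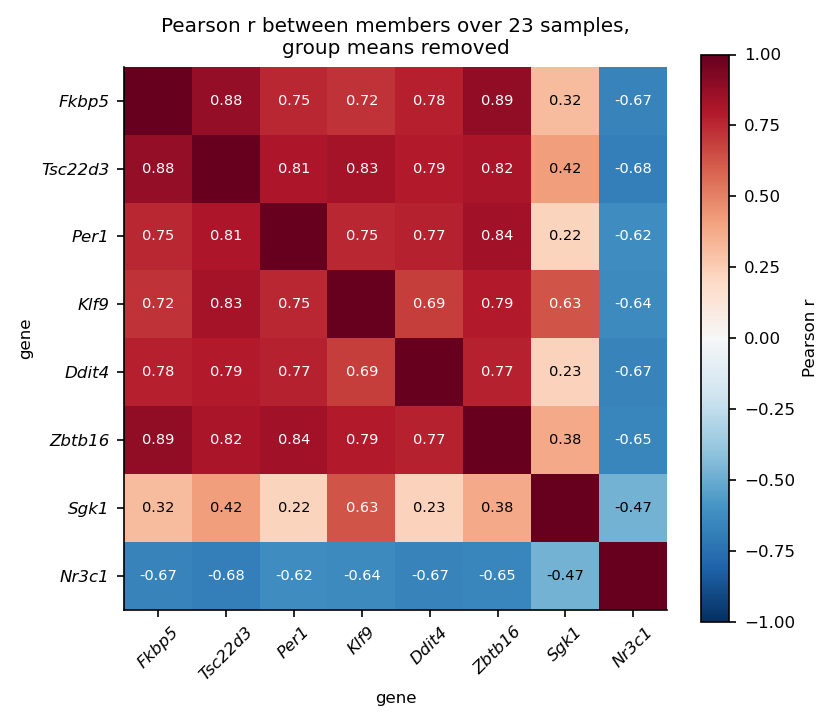
Pearson's r between each pair of the 8 genes (rows and columns) over the 23 samples after the mean of each group was subtracted. Red is positive and blue negative. The 6 genes at the upper left have r of 0.69 to 0.89 with one another, and Nr3c1 has r of -0.68 to -0.62 with each of them.

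Cell type markers also ran with the 6 genes. With group means removed, r between the mean of the 6 and the mean of a marker list was 0.66 for border macrophages, 0.46 for oligodendrocyte lineage, 0.36 for neurons and 0.32 for microglia, and -0.67 for endothelium, -0.65 for mural cells and -0.59 for astrocytes. It lay between -0.20 and 0.24 for monocytes, T cells and neutrophils. With the group means kept, r was 0.52 for border macrophages, 0.28 for oligodendrocyte lineage, 0.14 for neurons and 0.18 for microglia. For endothelium it was then -0.25, for mural cells -0.46 and for astrocytes -0.42, and it lay between -0.22 and 0.16 for the other 3 lists. Sham replicate 1 had the highest mean of the border macrophage markers, 12.12, in a range of 11.06 to 12.12 over the 23 samples, and also the highest mean of the microglia markers, 14.43, in a range of 14 to 14.43. Of the 6 border macrophage markers, Cd163 and Mrc1 are themselves known glucocorticoid-induced genes and stand in the list of such genes below. The part of these cells in the common variation was not tested.

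The genes nearest to each of the 6 by Pearson's r over the 23 samples were the kinase gene Eef2k (0.94) and the transporter gene Slc10a6 (0.93) for Fkbp5, and Rasd1, first described as a dexamethasone-induced Ras protein (0.90), and Klf9 (0.87) for Tsc22d3. For Per1 they were Klf13 (0.89) and Herpud1 (0.88), and for Klf9 they were Tsc22d3 (0.87) and Lims2 (0.86). For Ddit4 they were Ptger1 (0.91) and B4galnt1 (0.87), and for Zbtb16 they were Pik3ip1 (0.93) and Hif3a (0.91). For Nr3c1 they were Stk3 (0.87) and Shoc2 (0.86). Over all of these pairs r without the 2 farthest samples was 0.80 to 0.88, and none of these genes was called in any comparison.

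The glucocorticoid pathway around the 8 genes was followed in lists of known genes. Among 25 genes of the receptor machinery, which holds chaperones, steroid-converting enzymes, coactivators and corepressors, 3 were higher and 3 lower in LPS than in Sham by limma, 24% of the list beside 17.8% of all genes. The chaperone gene Hsp90ab1 (0.23, adjusted p = 0.00587), the chromatin remodeller Smarca4 (0.18, adjusted p = 0.00882) and H6pd (0.21, adjusted p = 0.016), which supplies the cofactor of the steroid-activating enzyme, were higher. The mineralocorticoid receptor gene Nr3c2 (-0.23, adjusted p = 0.0102), the drug efflux pump gene Abcb1a (-0.20, adjusted p = 0.023) and Hsd11b1 (-0.36, adjusted p = 0.0475), which turns inactive steroid into active hormone, were lower. The coactivator gene Ncoa3 (-0.37) and the corepressor gene Nrip1 (-0.17) were lower after LPS/HI when set against Sham, 8% of the list beside 8.77% of all genes. Against NaCl/HI, LPS had lower Nr3c2 (-0.34) and higher Hsd11b2 (0.43), whose enzyme inactivates the hormone, 2 of 25 genes beside 8.98% of all genes, and the interaction called Abcb1a (0.39), 1 of 25 beside 1.08%. NaCl/HI against Sham, LPS/HI against LPS and LPS/HI against NaCl/HI had 0 calls by limma in this list, with an unadjusted p under 0.05 in 5, 4 and 2 of the 25 genes, beside 14.8%, 15.5% and 10.6% of all genes.

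Of 42 further genes known to be induced by glucocorticoids, 3 were higher and 7 lower in LPS than in Sham by limma, 23.8% of the list beside 17.8% of all genes. The transcriptional repressor gene Bcl6 (0.44, adjusted p = 5.99e-05) and the transcription factor gene Cebpb (0.57, adjusted p = 0.00109) were higher, and the phagocytic receptor gene Mertk (-0.32, adjusted p = 0.00174) was lower. Set against Sham, LPS/HI had 7 higher and 0 lower, 16.7% of the list beside 8.77% of all genes, with Bcl6 (0.34), the lipid droplet gene Plin2 (0.50) and the matricellular gene Ccn2 (0.64) in front by adjusted p. Set against LPS, it had 4 higher and 0 lower, 9.52% beside 1.94% of all genes, namely Thbd (0.49), Anxa1 (0.73), Ccn2 (0.61) and Angptl4 (0.38). The call against NaCl/HI fell on 3 genes, all higher and 7.14% of the list beside 0.202% of all genes, namely the metallothionein genes Mt2A (0.82, adjusted p = 0.0354) and Mt1 (0.62, adjusted p = 0.0389) and the lipocalin gene Lcn2 (1.06, adjusted p = 0.046). All 3 are also induced by inflammation.

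In LPS against NaCl/HI 5 of the further induced genes were higher and 3 lower, 19% of the list beside 8.98% of all genes, with Bcl6 (0.36), Cebpb (0.58) and Thbd (-0.40) in front. NaCl/HI against Sham and the interaction had 0 calls by limma in this list, with an unadjusted p under 0.05 in 7 and 20 of the 42 genes, beside 14.8% and 15.1% of all genes. The median difference of the 42 genes was -0.06 in LPS against Sham, 0.03 in LPS/HI against Sham and 0.09 in LPS/HI against NaCl/HI, beside -0.01, 0 and 0 over all genes.

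Markers of several cell types also moved in LPS/HI against Sham, where 8.77% of all genes were called. Higher were 4 of 9 neutrophil markers, with a mean level of 5.74 to 6.19 in Sham and 6.04 to 7.02 in LPS/HI, 2 of 6 monocyte markers, with 8.57 to 9.19 and 8.92 to 9.87, and 2 of 6 mural markers, with 9.05 to 9.31 and 9.28 to 9.53, as well as the astrocyte gene Gfap and the endothelial gene Pecam1, each 1 of 6. Lower were 3 of 7 neuron markers, with 6.93 to 7.16 in Sham and 6.65 to 6.95 in LPS/HI, and the microglia gene Sall1 (1 of 7), the border macrophage gene Lyve1 (1 of 6) and the T cell gene Lck (1 of 3). The 8 markers of the oligodendrocyte lineage had 0 calls by limma and 0 with an unadjusted p under 0.05. Among the neutrophil markers, Mmp9 is also a gene of the next list. The part of these markers in the differences of the further induced genes, or of the other lists, between LPS/HI and Sham was not tested.

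Of 20 inflammatory genes known to be repressed by glucocorticoids, 2 were higher and 2 lower in LPS than in Sham by limma, 20% of the list and near the 17.8% of all genes. The chemokine gene Ccl2 (-0.66, adjusted p = 0.00076) and Il6 (-0.30, adjusted p = 0.00992) were lower, and Il12b (0.25, adjusted p = 0.0109) and Il1b (0.43, adjusted p = 0.0162) were higher. Mmp9 was higher in LPS/HI than in Sham (0.75) and than in LPS (0.91), 1 of 20 genes beside 8.77% and 1.94% of all genes. In LPS against NaCl/HI Il1b (0.54) and Vcam1 (0.31) were higher and Ccl2 (-0.53) lower, 15% of the list beside 8.98% of all genes. The other 3 comparisons, NaCl/HI against Sham, LPS/HI against NaCl/HI and the interaction, had 0 calls by limma, with an unadjusted p under 0.05 in 1, 8 and 6 of the 20 genes, beside 14.8%, 10.6% and 15.1% of all genes.

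By function Per1 is a clock gene, and 22 other clock genes were counted beside it. In LPS against Sham 8 of 22 were higher and 5 lower by limma, 59.1% of the list beside 17.8% of all genes. The transcription factor genes Tef (0.44, adjusted p = 5.99e-06) and Dbp (0.60, adjusted p = 0.000146) and the repressor gene Per3 (0.58, adjusted p = 2.02e-05) came first and were higher, whereas Per1 differed by 0.05 (SE 0.11, 95% interval -0.17 to 0.27, adjusted p = 0.774). When LPS/HI was set against Sham 8 were higher and 3 lower, 50% of the list beside 8.77% of all genes, with Tef (0.35), Per3 (0.48) and Nr1d1 (0.53) first, and Per1 differed by 0.08 (SE 0.10, 95% interval -0.13 to 0.29). In LPS against NaCl/HI 5 were higher and 1 lower, 27.3% of the list beside 8.98% of all genes, with Tef (0.28), Per2 (0.40) and Per3 (0.33) first, and Per1 differed by 0.16 (95% interval -0.06 to 0.38). The other 4 comparisons had 0 calls by limma among the 22, with an unadjusted p under 0.05 in 9 in NaCl/HI against Sham (14.8% of all genes), 9 in LPS/HI against NaCl/HI (10.6%), 7 in the interaction (15.1%) and 1 in LPS/HI against LPS (15.5%).

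**Figure D5:**
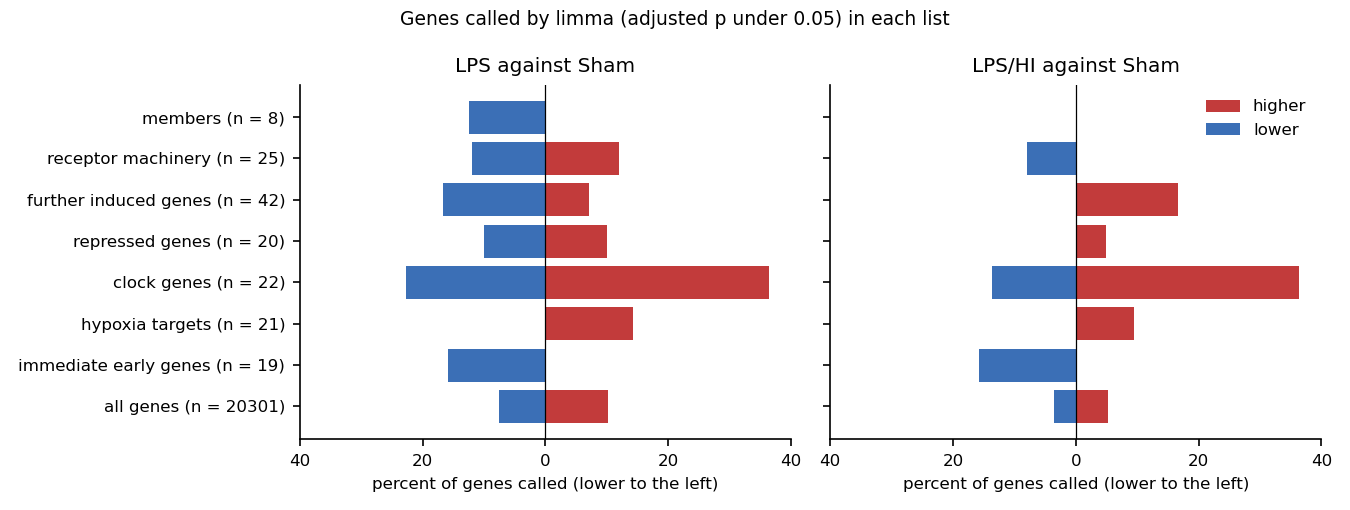
Percent of the genes of each list (y axis, with the number measured) called higher (red, to the right) or lower (blue, to the left) by limma in LPS against Sham and in LPS/HI against Sham, beside all genes. Clock genes have 8 of 22 higher in both, and the 8 glucocorticoid-responsive genes have 1 lower in the first and 0 in the second.

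Ddit4 and Sgk1 also respond to hypoxia and to acute stimulation, so hypoxia targets and immediate early genes were counted beside them. Of 21 hypoxia targets, 3 were higher and 0 lower in LPS than in Sham by limma, the glycolytic genes Pfkfb4 (0.30, adjusted p = 0.00101), Pgk1 (0.38, adjusted p = 0.00174) and Ldha (0.37, adjusted p = 0.0085), and this 14.3% of the list was near the 17.8% of all genes. Pgk1 (0.36) and Ldha (0.28) were higher in LPS/HI than in Sham, 9.52% beside 8.77% of all genes, and Pfkfb4 (0.26) in LPS than in NaCl/HI, 1 of 21 beside 8.98%. Ddit4 differed by 0.09 in LPS (95% interval -0.24 to 0.42) and by 0.03 in LPS/HI (-0.28 to 0.35) from Sham. Of 19 immediate early genes, 0 were higher and 3 lower in LPS than in Sham by limma, the transcription factor genes Egr2 (-0.74, adjusted p = 0.00053), Egr3 (-0.58, adjusted p = 0.00394) and Fosb (-0.48, adjusted p = 0.00587), 15.8% of the list beside the same 17.8% and beside 7.56% of all genes called lower. Egr2 (-0.53), Egr3 (-0.50) and Egr1 (-0.25) were lower in LPS/HI than in Sham, 15.8% beside 8.77%, and Egr2 (-0.44) in LPS than in NaCl/HI, 1 of 19 beside 8.98%. Both lists had 0 calls by limma in NaCl/HI against Sham, LPS/HI against LPS, LPS/HI against NaCl/HI and the interaction, with an unadjusted p under 0.05 in 3, 6, 3 and 4 of the hypoxia targets and 10, 4, 3 and 6 of the immediate early genes, beside 14.8%, 15.5%, 10.6% and 15.1% of all genes.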

How the data were processed

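Reads of CD11b/c-selected cells of 23 samples had been quantified with kallisto 0.48.0 on mRatBN7.2 and imported into DESeq2, with FastQC 0.11.9 and MultiQC 1.14 for quality, as the authors' methods and processing notes state. The deposited values are log2 values that the authors made with the rlog transformation, after leaving out genes with fewer than 10 counts, and corrected for 3 surrogate variables. Such a correction reduces the variation among samples of a group, and p-values may therefore be too low.

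Groups were taken from the sample titles, whose numbers mark biological replicates. The 6 pairs of groups and the interaction, (LPS/HI minus NaCl/HI) minus (LPS minus Sham), were tested in 1 fit of all samples with limma 3.58.1 in R 4.3.3, with a variance trend and residual degrees of freedom lowered from 19 to 16, and checked on simulated data. Benjamini-Hochberg adjustment ran over all 20301 genes, and called means an adjusted p under 0.05. No gene was filtered out. The study's test on counts could not be repeated on log2 values.

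The 8 genes, the 6 lists of pathway genes and the 10 lists of cell type markers were chosen with earlier results of these data known. Beside the 8 genes, the text names per list up to 3 called genes with the smallest adjusted p, and per gene the 2 with the highest Pearson's r. Further called genes of a list were named after their values were seen. Dusp1, Tat, Cldn5, Ly6c1, Cd3g and Trac were not found under these symbols, and 1 further marker gene is not reported here. Ctgf and Arntl are older names of Ccn2 and Bmal1, which were found. Nfil3 stands in 2 lists, as do Cd163, Mrc1 and Mmp9. Alternatives were other degrees of freedom, no trend, a robust prior, fits of single pairs of groups, a block for replicate number or for library series, a filter on low genes, median centring, quantile normalization, array weights, an exact two-sided Wilcoxon rank-sum test, a 2-fold threshold and leaving out each sample. Fits within libraries 1 to 12 and 13 to 23 were added after the data had been seen. Start sites came from RefSeq on GRCr8, another build than that of the quantification, matched by symbol.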

Additional observations from a re-analysis of the deposited data

Results flagged for a closer look

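In 6 of 32 groups of samples tested (8 genes in 4 groups), 1 sample lay farther from the others than Dixon's criterion allows at 95%, and chance alone flags about 5% of groups. Sham replicate 1 was high in Fkbp5 at 11.07, with the next Sham sample at 10.06, in Tsc22d3 at 11.31, with the next at 10.68, and in Klf9 at 9.35, with the next at 8.90. LPS replicate 5 was high in Fkbp5 at 10.56, with the next LPS sample at 9.89. LPS/HI replicate 1 was low in Klf9 at 8.94, with the next LPS/HI sample at 9.07, and high in Nr3c1 at 12.19, with the next at 12.10. The genes are correlated, so these 6 cases are not independent of one another.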

How the results depend on the processing

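The depth per sample is unknown, and rlog draws the differences of weakly expressed genes toward 0. Removal of the 3 variables may have lowered the spread, and the alternatives, run on the same corrected values, do not undo this. Sgk1 in LPS against Sham was called in all 11 alternative fits and tests with values of -0.47 to -0.41 (adjusted p from 0.00157 to 0.0312), but was not past the 2-fold threshold. LPS/HI from LPS was called in 8 of 10 (0.39 to 0.44, adjusted p from 0.000776 to 0.101) and LPS from NaCl/HI in 10 of 10 (-0.47 to -0.41, adjusted p from 0.002 to 0.0239). Both counts leave out the exact Wilcoxon test, which called neither Sgk1 nor any other gene in these comparisons. With the robust prior, the library series block and the lowest 25% of genes left out, all 56 differences kept their direction and side of the threshold. For alternatives that changed a result, the cause was not tested beyond what each one alters.

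With 19 residual degrees of freedom 2 of the 8 genes were called in LPS against Sham (Sgk1 and Nr3c1), 1 in LPS/HI against NaCl/HI and 1 in the interaction (both Klf9, adjusted p = 0.025 and 0.0493). Without the variance trend 0 were called in LPS/HI against LPS. After quantile normalization 2 were called in LPS against Sham (Sgk1 and Nr3c1). With array weights 2 were called in LPS against Sham (Sgk1 and Nr3c1), 3 in LPS/HI against Sham (Per1, Klf9 and Nr3c1), 2 in LPS/HI against LPS (Sgk1 and Klf9), 3 in LPS/HI against NaCl/HI (Tsc22d3, Per1 and Klf9) and 2 in the interaction (Sgk1 and Klf9). With only the groups compared 1 was called in LPS/HI against NaCl/HI (Klf9). By the exact Wilcoxon rank-sum test 0 were called in LPS/HI against LPS and 0 in LPS against NaCl/HI, where its lowest adjusted p over all genes was 0.104 and 0.0593. Its unadjusted p for Sgk1 was 0.00433 and 0.00866 there, and the smallest that it can give with these sample sizes is 0.00433. Past the 2-fold threshold 0 were called in LPS against Sham, 0 in LPS/HI against LPS and 0 in LPS against NaCl/HI.

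The replicate block left 0 called in LPS/HI against LPS, where Sgk1 had an adjusted p of 0.101, and changed no other call. Samples with the same replicate number did not deviate together in the corrected values. Their median r was -0.03 over 33 pairs, 9 of them over 0.1, beside 0.006 for 165 pairs with other numbers. The removal of surrogate variables by the authors may have taken out a deviation that such samples shared. Whether samples with the same number were paired can therefore not be decided from these values. Direction turned under the block for Fkbp5 (0.01) and Tsc22d3 (0.01) in LPS against Sham and Per1 (-0.0042) in LPS/HI against LPS. With median centring it turned for Zbtb16 (-0.01) in LPS/HI against Sham, Per1 (-0.0036) in LPS/HI against LPS and Nr3c1 (-0.01) in LPS/HI against NaCl/HI. With array weights it turned in LPS/HI against Sham for Fkbp5 (0.05) and Sgk1 (0.01), in LPS/HI against LPS for Fkbp5 (0.07) and Ddit4 (0.11), and in LPS/HI against NaCl/HI for Sgk1 (0.0039) and Nr3c1 (-0.01). None of these differences was called in the reported fit or under the alternative.

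When each sample was left out in turn, the number called was 1 to 2 in LPS against Sham, 0 to 1 in LPS/HI against Sham, 0 to 1 in LPS/HI against LPS and 0 to 1 in LPS/HI against NaCl/HI. It was 2 in LPS against Sham and 1 in LPS/HI against Sham without Sham replicate 1, and 1 in LPS/HI against NaCl/HI without Sham replicate 1 or LPS/HI replicate 1. The median difference of the 8 genes ranged from -0.26 to -0.09 in NaCl/HI against Sham, from -0.04 to 0.15 in LPS/HI against Sham, from 0.17 to 0.28 in LPS/HI against NaCl/HI and from 0.21 to 0.40 in the interaction, where Sham replicate 1 gave the bounds of -0.09, 0.15 and 0.21 (ranges chosen after seeing the data). Uncalled differences that changed sign in LPS against Sham ranged for Fkbp5 from -0.17 to 0.20, for Tsc22d3 from -0.12 to 0.10, for Per1 from -0.0042 to 0.13, for Klf9 from -0.09 to 0.05 and for Ddit4 from -0.06 to 0.20. In NaCl/HI against Sham Sgk1 ranged from -0.04 to 0.07. In LPS/HI against Sham Fkbp5 ranged from -0.18 to 0.14, Sgk1 from -0.07 to 0.02, Ddit4 from -0.05 to 0.14 and Zbtb16 from -0.13 to 0.31. In LPS/HI against LPS Fkbp5 ranged from -0.16 to 0.09, Per1 from -0.03 to 0.08 and Ddit4 from -0.14 to 0.10. In LPS/HI against NaCl/HI Sgk1 ranged from -0.09 to 0.02 and Nr3c1 from -0.01 to 0.03.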
